A study of Mus musculus with 80 samples.

Results

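The expression of 8 genes of stress erythropoiesis and red cell iron uptake (Erfe, Plek2, Tfrc, Epor, Tfr2, Steap3, Slc11a2 and Cd36) was followed in whole blood of irradiated mice. The genes were taken by symbol from 50365 gene rows, and they had been selected on their measured differences between irradiated and sham mice, above all on VarDR day 30, in these same libraries. Their levels and differences against sham are therefore descriptions without a test. All 8 were among the 21124 genes tested, that is, genes that reached a value of 10 in 3 or more libraries. Erfe and Plek2 were sparse: Erfe was listed at 0 in 24 of 80 libraries and reached 10 in 15, and Plek2 was at 0 in 10 and reached 10 in 25. Tfr2 was at 0 in 3 libraries, Steap3 in 1, and the other 4 genes in no library.

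The mice were female C57BL/6. In the VarDR groups the dose rate fell over time to simulate internal 137Cs, a caesium isotope that decays and is cleared from the body. The cumulative VarDR dose was 2 Gy on day 2 (n = 5), 2.8 Gy on day 3 (n = 6), 4.1 Gy on day 5 (n = 6) and 9.7 Gy on day 30 (n = 6). The labelled dose rates of these groups were 1, 0.77, 0.62 and 0.056 Gy per day. Acute mice were given the same doses of 2 Gy (n = 6), 2.8 Gy (n = 3) and 4.1 Gy (n = 6) at 0.73 Gy per minute and were bled on days 2, 3 and 5. Every irradiated group had a sham group of 6 mice of its own mode and day, and no acute group was bled on day 30. All RNA had globin transcripts removed, so haemoglobin levels are what that step left. Column totals of the normalized read counts were 15.9 to 77.7 M (M, mega), and 15637 to 27535 genes were above 0.

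When red cells are lost or their production is interrupted, erythropoietin signals through its receptor Epor to keep erythroid progenitors alive. Erythroblasts answer with erythroferrone, the hormone encoded by Erfe, which lowers hepcidin in the liver and so releases iron into plasma. Transferrin-bound iron enters the erythroblast through the transferrin receptor encoded by Tfrc, is reduced in the endosome by the ferrireductase Steap3, and leaves it through the transporter DMT1, the product of Slc11a2. Reticulocytes carry remnants of these transcripts into blood and lose them as they mature.

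On day 30 of VarDR all 8 genes were higher than in sham, with a median log2 difference of 1.54. The median over all genes tested was -0.19, and 40.4% of those genes lay above 0. For 4 of the 8, Erfe, Plek2, Tfrc and Epor, every irradiated library lay above every sham. The background for that pattern was 8.42% of the genes tested, and 3.83% had every irradiated library below every sham. On day 3 all 8 were below sham (median -0.50), when 47.9% of the genes tested lay above 0, but Erfe was above it without the first irradiated library (0.18) or the hepatocyte-rich libraries (0.13), and Tfr2 without the first sham (0.39). On days 2 and 5 the median was 0.22 and 0.18, with 5 of 8 above sham on each day, against 46.1% and 57.1% of the genes tested. None of the 8 had separate groups on these 3 days, when 1.54%, 2.89% and 2.3% of the genes tested were entirely above sham and 1.14%, 1.67% and 0.904% entirely below on days 2, 3 and 5. Because the genes were picked for this course, nothing is read from these counts.

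**Figure D1:**
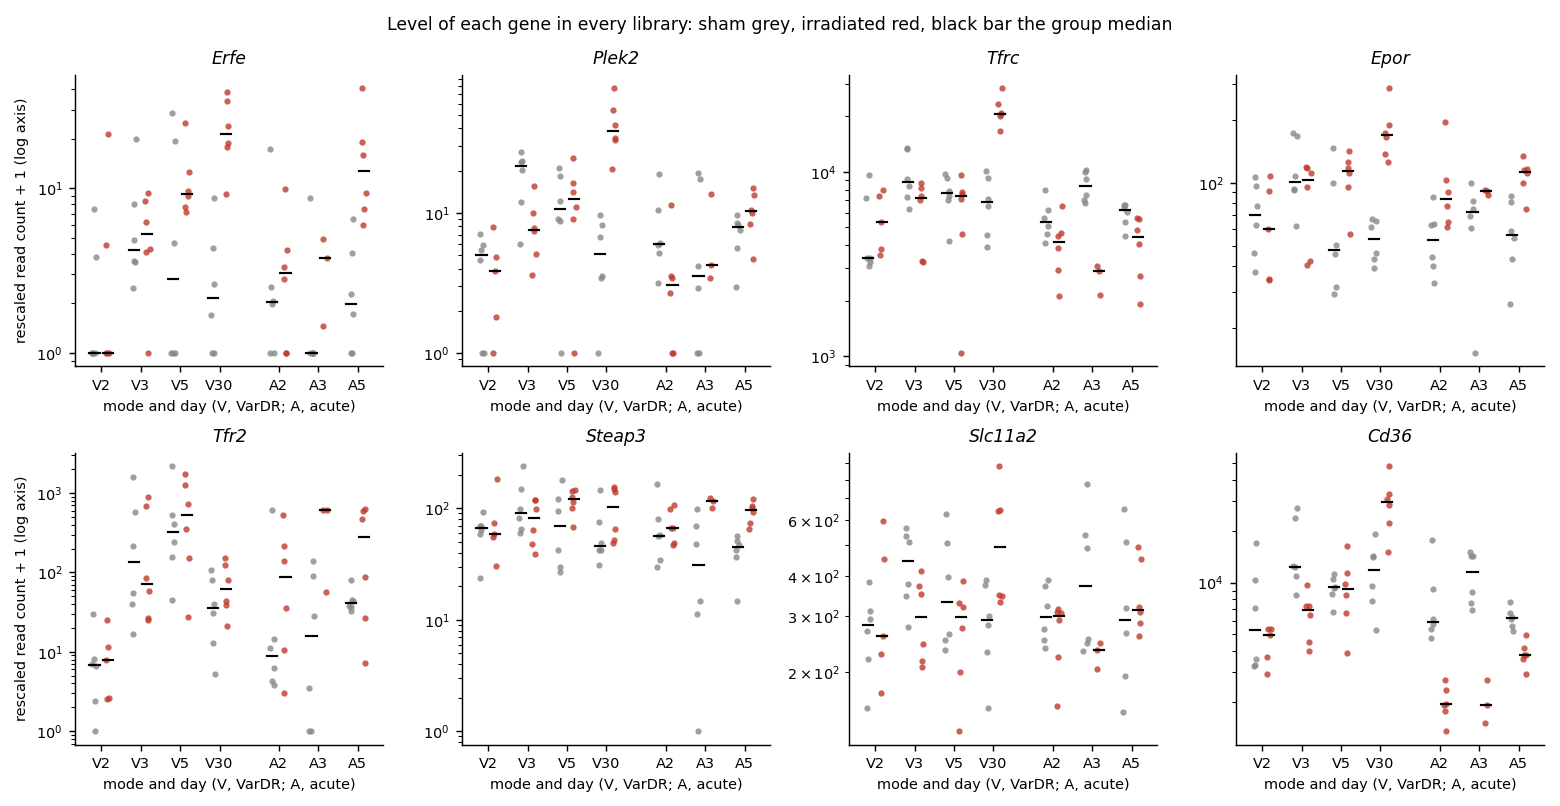
Rescaled read count plus 1 of each gene in every library on a log axis, with sham libraries in grey, irradiated libraries in red and the group median as a black bar (V, VarDR; A, acute; the number is the day). On VarDR day 30 the 6 irradiated libraries sit above the 6 shams for Erfe, Plek2, Tfrc and Epor, and after acute exposure the irradiated libraries sit below the shams for Cd36.

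Epor, the receptor that starts the response, was 37.8, 52.9 and 66.3 (lowest, median and highest rescaled read count) in the day 30 shams and 125, 169 and 286 in irradiated mice. The groups did not overlap, and the log2 difference was 1.72 ± 0.36 (limma standard error), or 3.30-fold. On day 3 the shams had 60.9, 99.9 and 173 against 39.3, 102 and 118 (log2 -0.46 ± 0.36), and the ranges overlapped. On day 5 Epor was 28.4, 46.7 and 147 in sham and 55.7, 113 and 141 in irradiated mice, also overlapping (0.89 ± 0.36). The day 30 irradiated mean, 179 ± 57.4 (SD, n = 6), was the highest of the 14 groups. The VarDR shams of day 3 came next with 115 ± 44.9, and the ranges of these 2 groups overlapped. The lowest mean was that of the day 30 shams, 52.8 ± 12.4.

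Erfe, the erythroblast hormone, was 0, 1.17 and 7.78 in the day 30 shams and 8.25, 20.4 and 37.4 in irradiated mice. All 6 irradiated libraries lay above the shams (log2 3.18 ± 0.76). At such low values the size depends on the pseudocount: with 10 in place of 1 the log2 difference was 1.38. On VarDR day 2 the 5 irradiated libraries had 20.4, 3.54, 0, 0 and 0, against 0, 0 and 6.48 in sham, so that 1 mouse stood above the rest. On day 5 the irradiated libraries had 6.18, 8.28 and 23.9 and the shams 0, 1.82 and 27.7, and on day 3 the values were 0, 4.26 and 8.34 against 1.48, 3.22 and 18.9. Neither day separated the groups. The order of the 14 means was led by VarDR day 30 (22.7 ± 10.8), acute day 5 (15.4 ± 12.9) and VarDR day 5 (10.8 ± 6.67), and all neighbours in the order overlapped.

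Plek2, pleckstrin 2, is a target of erythropoietin and JAK2 signalling that takes part in enucleation and the survival of erythroblasts. It was 0, 4.11 and 8.57 in the day 30 shams and 19.4, 37.4 and 76.9 in irradiated mice. The lowest irradiated library was above the highest sham, with a log2 difference of 3.22 ± 0.69 (1.82 with a pseudocount of 10). On day 3 the order was the other way, with 4.96, 20.5 and 26.0 in sham and 2.59, 6.58 and 14.7 in irradiated mice (-1.17 ± 0.69), and 2 of 6 irradiated libraries lay below all shams. On days 2 and 5 the Plek2 log2 differences were -0.07 ± 0.73 and 0.11 ± 0.69. The VarDR shams of day 3 had the second highest mean of the 14 groups, 17.6 ± 8.03, after the day 30 irradiated mice with 42.6 ± 20.1.

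Tfrc, which brings transferrin-bound iron into the cell, was the one gene of the 8 whose highest group did not overlap the next in the order of means. The day 30 irradiated mice had 16658, 20668 and 28586, and the day 30 shams 3901, 6863 and 10064 (log2 1.71 ± 0.32, or 3.27-fold). No library of the other 13 groups reached the lowest of the day 30 irradiated libraries: the next group, the VarDR shams of day 3, ended at 13546. Before that, Tfrc was 7374, 3526, 5347, 7928 and 3798 in the 5 irradiated mice of day 2, within the sham range of 3091 to 9562. On day 3 it was 3232, 7220 and 8670 against 6267, 8770 and 13546 in sham (-0.67 ± 0.32), and on day 5 it was 1040, 7367 and 9658 against 4228, 7652 and 9778 (-0.50 ± 0.32). The value of 1040 came from 1 library, in which Plek2 was at 0 and Cd36 was the lowest of its group, 3905.

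The other 4 genes were higher on day 30 with overlapping ranges. Cd36, a fatty acid and thrombospondin receptor that marks maturing erythroblasts and that platelets and monocytes also carry, was 5304, 11792 and 19375 in sham and 15125, 29784 and 48064 in irradiated mice. Of the 6 irradiated libraries, 5 lay above all shams (1.38 ± 0.32). Slc11a2, which encodes the endosomal iron exporter, was 153, 290 and 388 in sham and 329, 494 and 882 in irradiated mice (0.84 ± 0.30), with 3 of 6 above all shams. Steap3, the ferrireductase, was 30.3, 44.7 and 145 in sham and 47.9, 102 and 156 in irradiated mice (0.70 ± 0.55). Tfr2, an iron sensor that joins the erythropoietin receptor complex in erythroblasts and also controls hepcidin in hepatocytes, was 4.32, 34.6 and 105 in sham and 20.2, 61.7 and 152 in irradiated mice. For Steap3 and Tfr2 2 of 6 irradiated libraries were above all shams, and the Tfr2 difference of 1.05 ± 1.25 was smaller than its standard error.

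**Figure D2:**
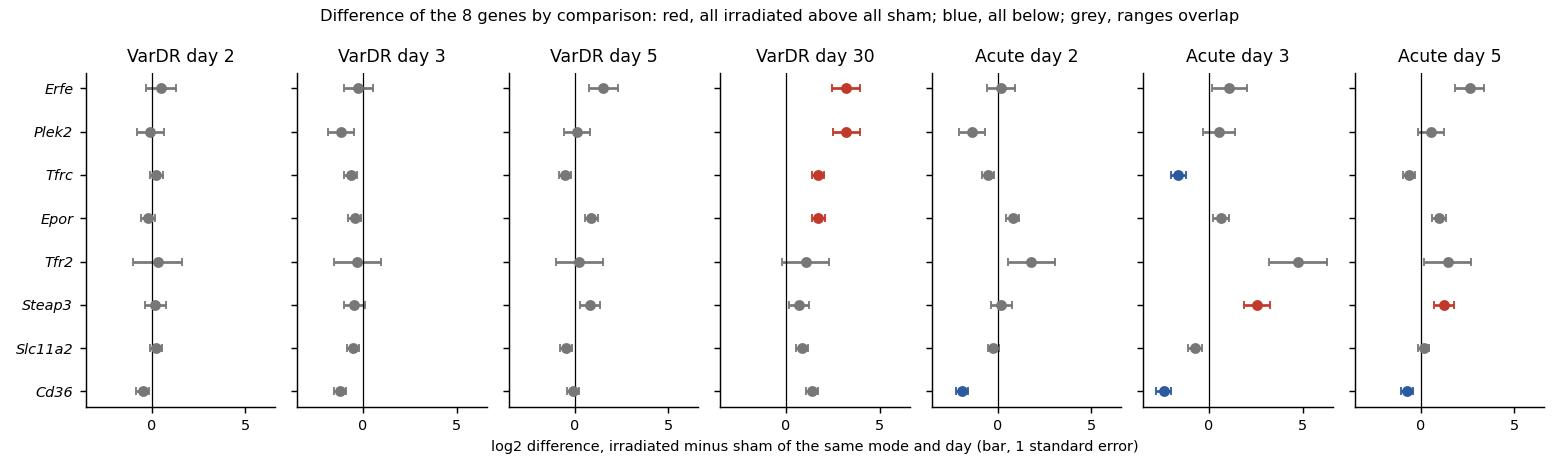
Log2 difference of each gene, irradiated minus sham of the same mode and day, with bars of 1 standard error. Red points have all irradiated libraries above all shams, blue points all below, and grey points overlap: VarDR day 30 has 4 red points and the 3 earlier VarDR days have none.

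Set against the mean response of days 2, 3 and 5, the day 30 response was larger for all 8 genes, by log2 3.59 ± 0.81 for Plek2, 2.59 ± 0.88 for Erfe, 2.02 ± 0.37 for Tfrc, 1.97 ± 0.37 for Cd36, 1.64 ± 0.42 for Epor and 1.10 ± 0.35 for Slc11a2. The values for Tfr2, 0.96 ± 1.45, and Steap3, 0.51 ± 0.63, were within their standard errors. The median was 1.81, against -0.24 over all genes tested. Quantile normalization, which forces every library to one distribution, left every day 30 difference above 0 but lowered Tfrc from 1.71 to 0.76 and Cd36 from 1.38 to 0.33. The day 30 irradiated libraries also had larger column totals, 45.5 to 69.6 M, than their shams, 15.9 to 31.4 M, and fewer genes above 0, 15637 to 19039 against 19842 to 23414. Transcripts of 7SL, the RNA of the signal recognition particle, took at least 53.7% of the signal in each day 30 irradiated library (median 56.2%) and 35.0 to 45.9% in their shams, and 10.6 to 31.5% after acute exposure against 31.1 to 55.7% in the acute shams. The part of this in the values was not tested.

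The 250 bases before the RefSeq transcript starts of the genes were searched for GATA sites (AGATAA or AGATAG, and likewise TGATAA or TGATAG), the binding letters of the erythroid GATA factors, for STAT sites (TTCNNNGAA), bound by the STAT factors that act below the erythropoietin receptor, and for CACC boxes (CACCC), bound by Krüppel-like factors, on both strands. RefSeq promoter windows on GRCm38.p6 matched 7 of the 8 genes by symbol. Over all 32841 windows, 26.5% held a GATA site, 7.02% a STAT site and 52.0% a CACC box. Of the 4 genes with separate groups on day 30, Epor held 1 GATA site and 2 CACC boxes, Erfe 3 CACC boxes, Tfrc 2 CACC boxes in the first of its 2 windows, and Plek2 none of these letters. No window of the 7 genes held a STAT site. A match is only a description of the letters. RefSeq starts can differ from the GENCODE gene starts given here, so the Epor window does not adjoin the gene and the searched Plek2 window reached into it. The windows of these 4 genes follow, 5′ to 3′ on the gene's strand and without any annotated exon, to show where the matches lie, with matched letters in capitals (CACCC appears as GGGTG, and AGATAA as TTATCT, where the match is on the opposite strand). Epor lies at chr9:21958897-21963506 on the minus strand of GRCm38 and its window at chr9:21963577-21963826, Erfe at chr1:91366430-91374217 (plus) and its window at chr1:91366180-91366429, Tfrc at chr16:32608920-32632794 (plus) and its window at chr16:32608646-32608895, and Plek2 at chr12:78888691-78906964 (minus) and its window at chr12:78906965-78907188.
Epor: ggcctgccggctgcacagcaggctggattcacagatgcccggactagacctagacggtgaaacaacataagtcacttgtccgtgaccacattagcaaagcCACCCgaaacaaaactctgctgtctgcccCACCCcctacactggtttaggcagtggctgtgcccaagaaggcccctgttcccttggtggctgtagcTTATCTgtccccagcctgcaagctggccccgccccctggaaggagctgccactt
Erfe: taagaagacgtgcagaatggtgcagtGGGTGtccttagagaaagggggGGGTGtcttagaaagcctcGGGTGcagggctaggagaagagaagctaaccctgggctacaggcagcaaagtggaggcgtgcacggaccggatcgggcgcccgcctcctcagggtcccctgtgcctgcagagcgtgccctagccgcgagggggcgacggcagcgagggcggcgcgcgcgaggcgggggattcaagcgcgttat
Tfrc: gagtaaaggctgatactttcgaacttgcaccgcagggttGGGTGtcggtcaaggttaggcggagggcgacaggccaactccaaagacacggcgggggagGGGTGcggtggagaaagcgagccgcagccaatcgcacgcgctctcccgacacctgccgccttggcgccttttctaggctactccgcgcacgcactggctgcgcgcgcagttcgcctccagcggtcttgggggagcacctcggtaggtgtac
Plek2: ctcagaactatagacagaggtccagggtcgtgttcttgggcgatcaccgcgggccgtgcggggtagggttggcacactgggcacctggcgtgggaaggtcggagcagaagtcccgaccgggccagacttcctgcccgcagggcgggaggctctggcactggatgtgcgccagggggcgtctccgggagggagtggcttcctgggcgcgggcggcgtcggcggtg

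After acute exposure the 8 genes did not move as a group. Their median log2 difference was -0.02 on day 2, 0.59 on day 3 and 0.77 on day 5, and single genes ranged from -2.42 to 4.73. Above sham were 4, 5 and 6 of the 8, against 53.6%, 63.7% and 51.4% of the genes tested. The median over all genes was 0.30 on day 3. In the deposited values the acute irradiated libraries lay above their shams by 1.39-, 2.02- and 1.93-fold on days 2, 3 and 5 over the genes present in every library. All columns were rescaled to remove this, so a rise or fall shared by most genes could not be measured.

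Cd36 was the gene whose acute groups separated on every day. On day 2 it was 1351, 1938 and 2708 in irradiated mice and 4761, 5928 and 17773 in sham (-1.89 ± 0.32), when 5.34% of the genes tested had all irradiated libraries below all shams and 3.84% all above. On day 3 the 3 irradiated mice had 1933, 1509 and 2700 against 6952, 11546 and 15103 (-2.42 ± 0.39, background 10.3%). On day 5 the values were 2939, 3776 and 4963 against 5230, 6188 and 7733 (-0.70 ± 0.32, background 7.02%), and in the values as deposited the day 5 difference turned to 0.25. Tfrc was lower on day 3, with 3077, 2158 and 2882 against 6818, 8338 and 10182 (-1.64 ± 0.40), and the groups did not overlap. It was also lower on day 5, 1929, 4449 and 5622 against 4463, 6212 and 6609 (-0.61 ± 0.32), where the values as deposited gave 0.34. The 3 acute irradiated groups had the lowest Tfrc means of all 14 groups, 2706 ± 484 to 4118 ± 1523, and overlapped with one another. Slc11a2 was 204, 245 and 234 on day 3 against 231, 370 and 777 in sham (-0.73 ± 0.37, and 0.28 as deposited), and on days 2 and 5 it differed by less than its standard error.

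Epor and Erfe were not lower after acute exposure. Epor was 60.1, 82.9 and 194 on day 2 against 32.1, 52.4 and 84.3 in sham (0.80 ± 0.36), and 74.3, 112 and 134 on day 5 against 25.2, 55.4 and 85.5 (0.99 ± 0.36). On day 5, 5 of 6 irradiated libraries were above all shams. The 3 irradiated mice of day 3 had 90.9, 86.1 and 91.4, inside a sham range of 14.2 to 98.7 (0.63 ± 0.44). Erfe was 5.03, 11.7 and 39.8 on day 5 against 0, 0.992 and 5.49 in sham (2.61 ± 0.76, and 1.00 with a pseudocount of 10), with 5 of 6 above all shams. On day 2 it was 0, 2.07 and 8.91 against 0, 1.03 and 16.3 (0.19 ± 0.76), and on day 3 it was 3.93, 2.79 and 0.464, when 5 of the 6 shams were at 0. Plek2 did not separate on any acute day: its log2 differences were -1.38 ± 0.69, 0.54 ± 0.85 and 0.55 ± 0.69.

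Steap3 and Tfr2 had their largest acute differences on day 3, together with transcripts of hepatocytes. Steap3 was 115, 100 and 124 on acute day 3 against 0, 30.1 and 96.7 in sham (2.55 ± 0.67), and 64.0, 95.7 and 120 on day 5 against 13.7, 43.8 and 55.6 (1.25 ± 0.55). Both days had every irradiated library above every sham, a pattern of 12.2% of the genes tested on day 3 and 7.67% on day 5. Tfr2 was 602, 605 and 56.4 on day 3 against 0, 14.7 and 138 (4.73 ± 1.53), and 6.16, 282 and 636 on day 5 against 31.8, 40.0 and 79.7 (1.45 ± 1.25), with 4 of 6 irradiated libraries above and 2 below all shams. All 15 hepatocyte markers, albumin (Alb) among them, were higher on acute day 3 by limma with Benjamini-Hochberg adjustment. Their summed level was 20130 to 429018 in irradiated mice and 52.1 to 39984 in shams, with no marker at 0 in all libraries of a group. Without the libraries in which these markers held over 0.5% of the signal, which left 1 irradiated mouse on day 3, Tfr2 differed by 2.47. On VarDR day 30 none of the 15 markers passed by limma (median 2.40, with 0 at an unadjusted p under 0.05). Their sum was 2844 to 99016 in irradiated mice and 498 to 45283 in sham, and no library passed 0.5%.

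To see which genes varied with which cells apart from the group differences that chose them, each library's deviation from its own group mean was compared with that of 4 marker scores, over 80 libraries. A score was the mean log2 value of red cell membrane, platelet, monocyte or hepatocyte genes without the 8 genes, and p-values came from 100000 permutations within groups, adjusted over 32 relations. Cd36 and Tfrc followed the red cell membrane score, with Pearson r = 0.89 and 0.81 (Spearman rho = 0.84 and 0.80, permutation p = 1e-05, the smallest that these permutations can give, adjusted p = 0.000107 for both). Leaving out the 2 libraries farthest on that score gave r = 0.86 and 0.77. Epor followed it less closely (r = 0.45, rho = 0.50, permutation p = 4e-05, adjusted p = 0.00032, r = 0.45 without the 2 farthest). Tfr2 followed the hepatocyte score (r = 0.86, rho = 0.84, permutation p = 1e-05, adjusted p = 0.000107, and r = 0.84 without the 2 farthest), and Steap3 did so weakly (r = 0.34, rho = 0.33, permutation p = 0.00634, adjusted p = 0.0254, r = 0.33 without the 2 farthest). The platelet score was related to Cd36 (r = 0.50, rho = 0.44, adjusted permutation p = 0.00048), Tfrc (r = 0.48, rho = 0.52, 0.00032) and Epor (r = 0.39, rho = 0.40, 0.00274), with r = 0.47, 0.44 and 0.36 without the 2 farthest. Erfe, Plek2 and Slc11a2 passed with none of the 4 scores, and no gene passed with the monocyte score. Erfe reached a value of 10 in 15 of the 80 libraries and Plek2 in 25, so a relation of either gene could be missed.

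**Figure D3:**
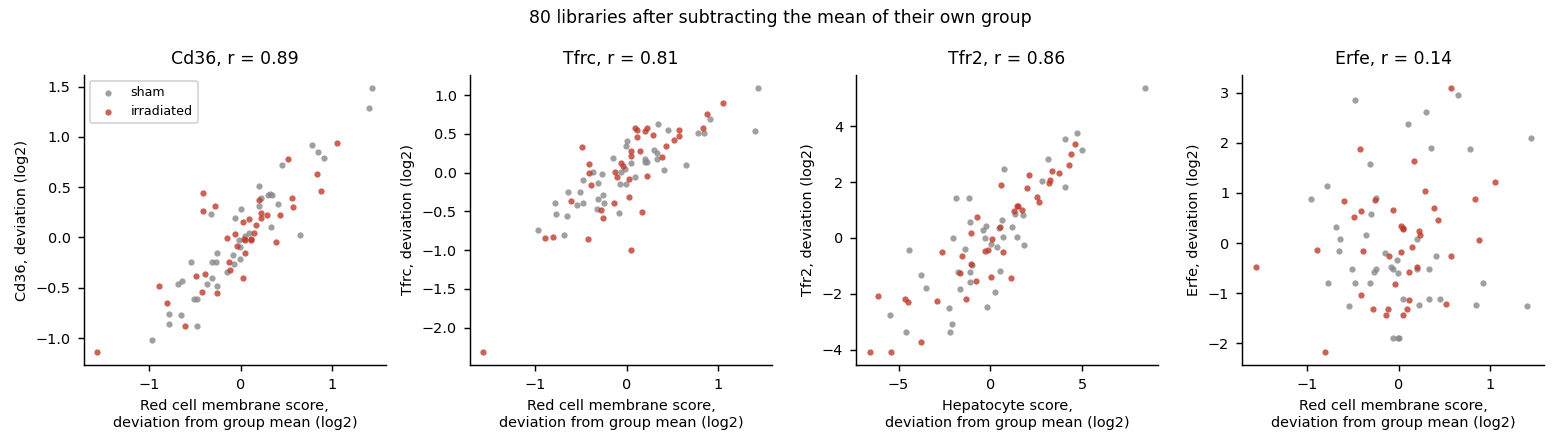
Deviation of a gene from its group mean (y axis, log2) against the deviation of a marker score (x axis, log2) in 80 libraries, shams in grey and irradiated libraries in red. Cd36 and Tfrc lie along a line with the red cell membrane score and Tfr2 with the hepatocyte score, while Erfe shows no such line (r = 0.14). Erfe was at 0 in 24 of the 80 libraries, so a relation could be missed.

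Among themselves, in the same deviations, Tfrc and Cd36 were the closest pair (r = 0.74), followed by Tfr2 and Steap3 (0.45) and Tfrc and Epor (0.37). Epor and Steap3 ran opposite (-0.35), and the r of Erfe with the other genes ran from -0.27 to 0.07. Over the 42 shams, the genes most like the mean of the 8 were Tmem56 (r = 0.90), Hebp1, a haem-binding protein (0.90), and Slc16a1, a lactate transporter (0.89), out of 11179 genes with a mean value of at least 50. Cd36 was most like Rsad2, Yipf4 and Serinc1 (r = 0.97 each), and Tfrc most like Hace1, Sec61g and Depdc1b (0.95, 0.94 and 0.94). Tfr2 was most like Apoa5, Aldh1a7 and Proz (0.94, 0.93 and 0.92). Epor was most like Kifc1, a spindle motor (0.80), and Steap3 like Colec12 (0.85), while the best r was 0.57 for Erfe, 0.61 for Plek2 and 0.64 for Slc11a2. These likenesses are descriptions across shams of different days that share library depth and cell makeup.

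In whole blood fewer cells of a type and less RNA per cell cannot be told apart. Each gene was also set against the red cell membrane score of its own library. On VarDR day 30 the log2 ratio of gene to score differed from sham by 0.17 for Tfrc, 0.19 for Epor and -0.16 for Cd36. It differed by 1.65 for Erfe and 1.68 for Plek2, with 2 and 4 of 6 irradiated libraries above all shams, and by -0.69, -0.84 and -0.49 for Slc11a2, Steap3 and Tfr2. Erfe and Plek2 were near 0 in the day 30 shams (means 2.24 and 4.40). At such values the size depends on the pseudocount, so a rise of these 2 genes beyond the score cannot be read from their ratios. On acute days 2 and 3, when most membrane genes were lower, all 8 mean ratios were above sham, by 0.94 to 4.61 on day 2 and by 1.39 to 8.54 on day 3. Tfr2, which followed the hepatocyte score, had the largest difference on both days. Epor came next on day 2 (3.63), and Steap3, which followed the hepatocyte score weakly, on day 3 (6.36). The part of hepatocyte transcripts in these ratios was not tested. The ratio of Epor was above all shams on each acute day, by 3.63, 4.44 and 1.30. That of Steap3 was too, by 3.03, 6.36 and 1.56. On day 2 the ratios of Tfrc, Slc11a2 and Cd36 were also above all shams, and on day 3 those of all 8 genes were. The pattern was not counted over all genes tested, so nothing is read from it.

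**Figure D4:**
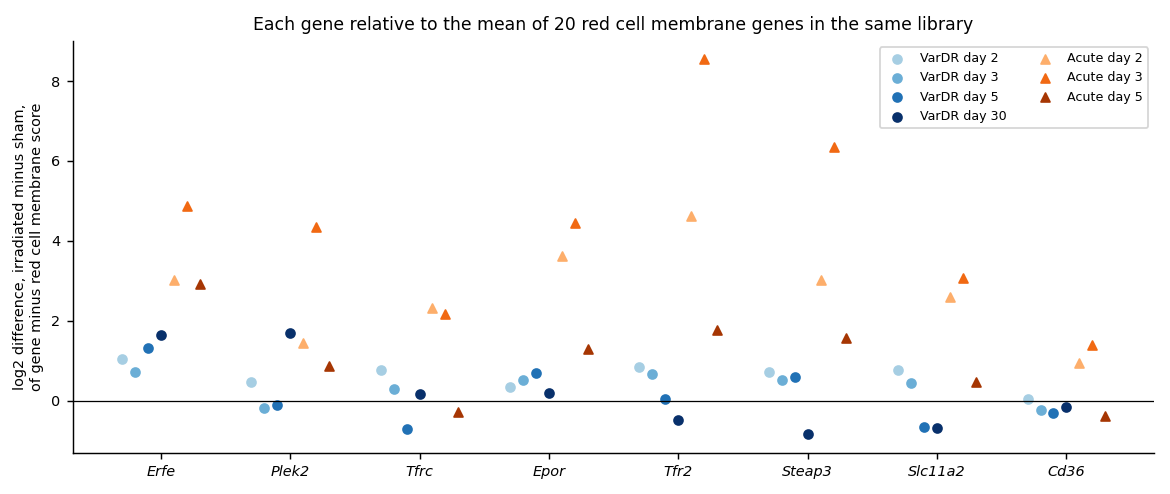
Difference between irradiated and sham means of the log2 ratio of each gene to the mean of 20 red cell membrane genes in the same library, for the 4 VarDR comparisons (circles) and the 3 acute ones (triangles). On VarDR day 30 Erfe and Plek2 lie above 1.6 and the other 6 genes between -0.84 and 0.19. Erfe and Plek2 were near 0 in the day 30 shams, where the size depends on the pseudocount.

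The other genes of these pathways, none of which was among the 8, were tested by limma, with Benjamini-Hochberg adjustment over the 21124 genes. The lists were written with earlier results of these data known, so their counts are not independent of these libraries. On VarDR day 30, 12.6% of all genes tested were higher and 12.5% lower. Haem synthesis genes were higher in 11 of 13 (median log2 1.52) and none was lower. They included Abcb6, a porphyrin transporter (1.96 ± 0.30, adjusted p = 8.54e-07). Cellular iron genes were higher in 13 of 28 and lower in 1 (median 0.79). Ftl1, a ferritin light chain, was higher by 1.76 ± 0.28 (adjusted p = 1.84e-06) and Abcb10, which stabilises the mitochondrial iron importer, by 1.57 ± 0.25 (adjusted p = 1.69e-06), while Slc25a28, the other mitoferrin, was lower by -0.56 ± 0.16 (adjusted p = 0.00598). Red cell membrane genes were higher in 18 of 20 (median 1.62), led by the water channel Aqp1 (1.83 ± 0.25, adjusted p = 1.01e-07) and the Rh-associated glycoprotein Rhag (2.06 ± 0.32, adjusted p = 1.4e-06). Late reticulocyte genes were higher in 13 of 15, among them Xpo7 (1.73 ± 0.30) and Hemgn (1.72 ± 0.33), and haemoglobin genes in 8 of 9, among them the embryonic globin Hbb-y (2.70 ± 0.59, adjusted p = 0.000269). Quantile normalization lowered these counts to 7 of 28 iron genes, 11 of 20 membrane genes, 4 of 15 late reticulocyte genes and 4 of 9 haemoglobin genes.

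The signalling genes moved in both directions on day 30. Of 17 genes around the erythropoietin receptor, 5 were higher and 2 lower (median 0.26). Pim1, a survival kinase induced by STAT5, was higher by 1.35 ± 0.21 (adjusted p = 1.25e-06), and Bcl2l1, which encodes the survival protein BCL-XL, by 1.45 ± 0.36 (adjusted p = 0.00139, and 0.364 after quantile normalization). The receptor's kinase Jak2 was higher by 0.44 ± 0.11 (adjusted p = 0.0013, and 0.937 after quantile normalization). Stat5a (-0.56 ± 0.14, adjusted p = 0.00188) and the phosphatase Ptpn6 (-0.68 ± 0.15, adjusted p = 0.000205) were lower. Quantile normalization left 1 higher and 3 lower. Of 15 stress response genes 4 were higher and 1 lower. Samd14, which enhances KIT signalling in erythroid progenitors of mice, was higher by 1.39 ± 0.25 (adjusted p = 1.46e-05) and Eif2ak1, the haem-regulated kinase, by 1.14 ± 0.18 (adjusted p = 1.35e-06), and the glucocorticoid receptor Nr3c1 was lower by -0.48 ± 0.09 (adjusted p = 3.52e-05). Erythroid transcription factors were higher in 10 of 13, among them Zfpm1, the GATA1 partner FOG1 (1.74 ± 0.27), and Nfe2 (1.29 ± 0.21). The 2 lower ones were Bcl11a and Ldb1. Bcl11a differed by -0.83 ± 0.27 (adjusted p = 0.0177, and 0.0596 without the first irradiated library). Ldb1 differed by -0.38 ± 0.12 (adjusted p = 0.0184, and 0.0653 without the sixth irradiated library). Early progenitor markers were higher in 4 of 9: the mitotic genes Top2a (1.38 ± 0.23, adjusted p = 2.9e-06) and Mki67 (1.61 ± 0.28, adjusted p = 6.8e-06), Sox6 (1.37 ± 0.33, adjusted p = 0.00119, and 0.0522 after quantile normalization) and, named because it completes the count and after its values were seen, the cyclin Ccnb1 (1.65 ± 0.46, adjusted p = 0.0042). The other 5 did not pass: Cd34 differed by -1.31 ± 0.54 (adjusted p = 0.0648), Kit by -0.29 ± 0.55 (adjusted p = 0.744), Gata2 by 0.84 ± 0.34 (adjusted p = 0.0549), Myb by 0.60 ± 0.41 (adjusted p = 0.307) and Car1 by 0.72 ± 0.48 (adjusted p = 0.283).

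**Figure D5:**
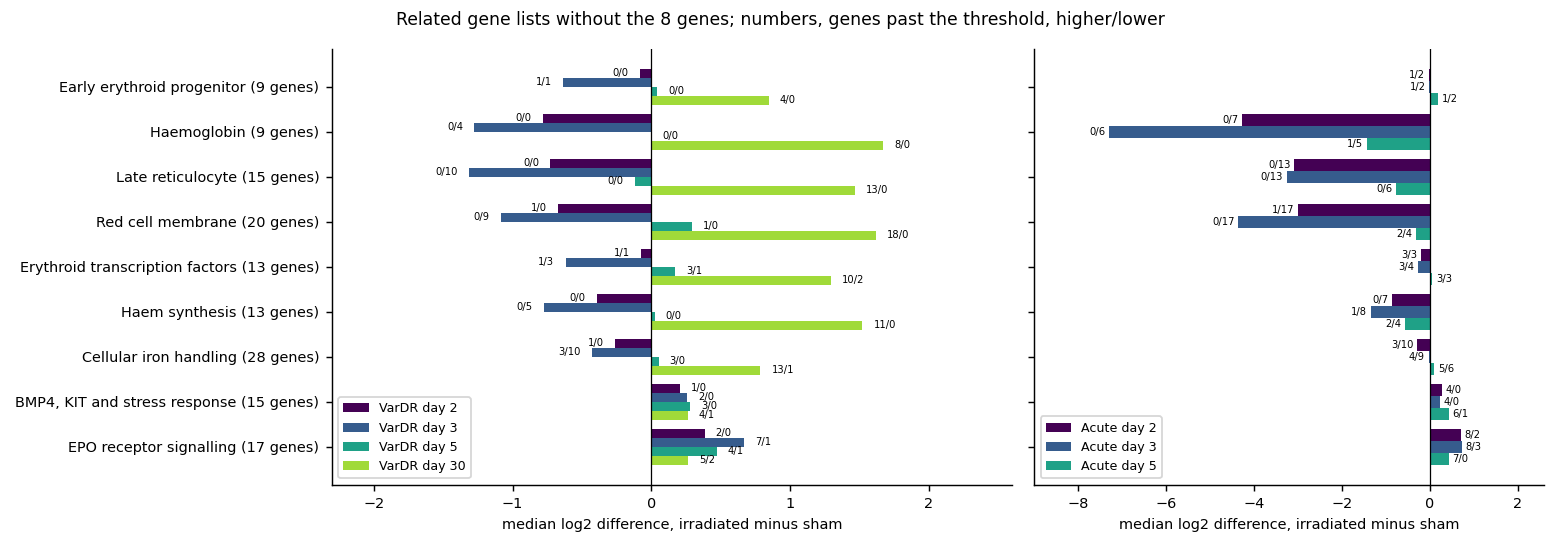
Median log2 difference of 9 related gene lists without the 8 genes, for the VarDR comparisons (left) and the acute ones (right, wider axis), with the number of genes past the threshold written as higher/lower. On VarDR day 30 haem synthesis stands at 11/0 of 13 genes and red cell membrane at 18/0 of 20, and on acute day 3 red cell membrane stands at 0/17.

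Markers of other blood cells also changed on day 30. B cell markers were lower in 10 of 10 (median -1.28) and T cell markers in 6 of 10 (median -0.72), and 1 of 10 neutrophil markers was higher. Platelet markers were higher in 12 of 13 (median 1.06). Their summed level was 166294 to 225490 in irradiated mice and 66889 to 105467 in sham, and none was at 0 in all libraries of a group. They were also higher on every other irradiated day, in 12 of 13 genes on VarDR day 2 and in 13 of 13 elsewhere, including the days on which Tfrc and Cd36 were lower. Of the 12 monocyte markers none passed on day 30 by limma, with 0 at an unadjusted p under 0.05. The part of platelet RNA in the Cd36 and Tfrc levels was not tested. Nor was the part of the lower lymphocyte transcripts in the values of the 8 genes and of the list genes, Bcl11a among them.

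The difference between day 30 and the mean of days 2, 3 and 5 was itself tested for these genes, where 10.9% of all genes tested were higher and 10.5% lower. Red cell membrane genes were higher in 19 of 20 (median 2.10), haem synthesis genes in 11 of 13 (1.95), late reticulocyte genes in 13 of 15 (2.09), iron genes in 13 of 28 (0.68) and haemoglobin genes in 8 of 9 (2.41), or 4 of 9 after quantile normalization. Alas2, the erythroid enzyme that starts haem synthesis, differed by 2.46 ± 0.38 (adjusted p = 7.02e-07), but by 0.22 after quantile normalization (adjusted p = 0.479). Lmo2 differed by 2.42 ± 0.38 (adjusted p = 1.35e-06), Ftl1 by 2.23 ± 0.33 (adjusted p = 2.44e-07) and Bcl2l1 by 2.02 ± 0.42 (adjusted p = 0.00014). Of 17 genes around the erythropoietin receptor, 2 were higher and 2 lower in this difference, or 2 and 7 after quantile normalization.

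On VarDR day 3, when all 8 genes lay below sham, 5.12% of the genes tested were higher and 5.23% lower. Late reticulocyte genes were lower in 10 of 15, red cell membrane genes in 9 of 20, haem synthesis genes in 5 of 13 and iron genes in 10 of 28, with 3 iron genes higher. Examples were Hemgn (-1.49 ± 0.33, adjusted p = 0.000816), Abcb6 (-1.38 ± 0.30, adjusted p = 0.000657) and the haem transporter Slc48a1 (-1.57 ± 0.32, adjusted p = 0.000355). The day 3 shams were themselves high among VarDR shams. Mean Hba-a1 was 734105 there, against 400040, 496671 and 438476 in those of days 2, 5 and 30. Mean Cd36 was 15937 against 7438, 9331 and 11736, while Erfe and Tfr2 were higher in the day 5 shams. The day 3 irradiated means were 381343 for Hba-a1 and 6540 for Cd36. The part of this sham group in the differences was not tested. The membrane count was 2 at its lowest when single libraries were left out, and 3 without the hepatocyte-rich libraries or when fitted on the sham and irradiated mice of that day alone. The iron gene count was 6 lower and 0 higher in that smaller fit. Genes around the erythropoietin receptor were higher in 7 of 17 on that day and lower in 1, or 4 and 0 in the smaller fit. The kinase Lyn led the higher ones (0.75 ± 0.12, adjusted p = 8.55e-06). Neutrophil markers were also higher in 9 of 10, and the part of cell makeup in these counts was not tested. Tal1, a transcription factor of progenitors and megakaryocytes, was higher on VarDR days 2, 3 and 5 (1.26 ± 0.25, 0.87 ± 0.24 and 1.08 ± 0.24, adjusted p = 0.000356, 0.00697 and 0.000716), while Lmo2 was lower on day 3 (-1.35 ± 0.33, adjusted p = 0.00273). Over all genes tested, 2.52% were higher and 0.743% lower on day 2, and 5.41% and 3.38% on day 5. By limma no haem synthesis, late reticulocyte or haemoglobin gene passed on day 2, with 2, 6 and 3 at an unadjusted p under 0.05, nor on day 5, with 1, 0 and 0.

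After acute exposure most red cell membrane, late reticulocyte and haemoglobin transcripts fell on days 2 and 3. On day 2, 7.36% of the genes tested were higher and 7.46% lower, and red cell membrane genes were lower in 17 of 20 (median -3.00). Alas2 fell by 4.85 on the log2 scale (standard error 0.33, adjusted p = 6.05e-20) and ferrochelatase, Fech, by 4.63 (0.36, adjusted p = 6.63e-17). On day 3, with 11.8% higher and 8.72% lower over all genes, Alas2 fell by 8.01 (0.40, adjusted p = 3.82e-27), the mitochondrial iron importer Slc25a37 by 5.75 (0.51, adjusted p = 9.63e-15), and the median haemoglobin gene by 7.29. On day 5, with 9.75% higher and 9.1% lower, Alas2 was still lower (-1.73 ± 0.33, adjusted p = 2.46e-05) and red cell membrane genes were lower in 4 of 20 and higher in 2 (median -0.33), where the values as deposited gave 0 lower and 6 higher (median 0.62). Hbb-y was higher by 2.04 ± 0.59 (adjusted p = 0.00737), as were the ferrireductase Steap4 (2.47 ± 0.39, adjusted p = 7.07e-07), Samd14 (2.25 ± 0.25, adjusted p = 1.7e-11) and haem oxygenase, Hmox1 (1.12 ± 0.24, adjusted p = 0.000206). Of 17 genes around the erythropoietin receptor, 8, 8 and 7 were higher on the 3 days, or 13, 15 and 16 as deposited. Lower were 2, 3 and 0. Socs2, a feedback inhibitor, was higher on day 2 (2.06 ± 0.30, adjusted p = 6.42e-08). Bcl2l1 was lower on day 2 (-2.37 ± 0.36, adjusted p = 2.35e-07) and day 3 (-2.67 ± 0.44, adjusted p = 2.02e-06). The part of cell makeup in these counts was not tested.

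Of the 11 systemic iron regulators none passed on VarDR day 30 by limma (median 0.77, with 0 at an unadjusted p under 0.05), and 8 were higher on acute day 3, or 1 at the lowest when single libraries were left out. Hamp, which encodes hepcidin, the liver hormone that erythroferrone lowers, was higher by 7.04 ± 2.07 on acute day 3 (adjusted p = 0.00946). It moved there with the 15 hepatocyte markers, and the call was lost without the first (6.31, adjusted p = 0.0734) or the second irradiated library (6.21, adjusted p = 0.0765), each of which left 2 irradiated mice. Without the hepatocyte-rich libraries 1 irradiated mouse was left, whose Hamp value differed from sham by 3.92. Gdf15, a stress cytokine of erythroblasts and other cells, was higher by 4.76 ± 1.13 on that day (adjusted p = 0.000922).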

How the data were processed

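Whole-blood RNA was globin-depleted and ribosomal RNA-depleted and sequenced as stranded total RNA, per the labels' protocols. Tools listed in the submitters' processing notes are kallisto 0.44.0, bcl2fastq 2.19, DESeq2 and sleuth, with the build GRCm38. The deposited signal values are the authors' normalized read counts per gene, which are not whole numbers, so no count model was used. Of 82 columns, 80 matched a sample's labels and 2 were not used, and 26 rows whose symbols had become dates were left out. The sheet's title names lung, but its column names match the blood samples.

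Each column was divided by a factor that made the median ratio to the mean library equal, using the 11349 genes that no library listed at 0. All 14 groups entered 1 limma fit (3.58.1, R 4.3.3) on log2(value + 1), with trend and robust variance, for genes reaching 10 in 3 or more libraries. Calls are Benjamini-Hochberg adjusted p under 0.05 over 21124 genes. The procedure was also run on simulated normal log2 values with a single spread per gene and the same change in every irradiated group. These had no floor at 0 and no differences in cell makeup, so the run cannot speak to either. A fold change is on the log2(value + 1) scale and understates the change of low genes. The labels do not number the mice, so replicates are named in accession order and p-values measure the spread between these samples.

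The 8 genes and the lists were chosen with earlier results of these data known. The 8 genes were given no test against sham. From each list up to 3 genes per direction with the smallest adjusted p were eligible to be named, and on days 2 to 5 mainly those that kept their call without any 1 library were used, a choice made after their values were seen. Alternatives were the values as deposited, quantile normalization, a pseudocount of 10, no filter, only the compared groups, leaving out hepatocyte-rich libraries and leaving out each library. Sequences came from RefSeq tables on GRCm38.p6 and gene positions from GENCODE M21. Some results for single list genes are not reported here.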

Additional observations from a re-analysis of the deposited data

Results flagged for a closer look

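In 104 groups of 5 or 6 libraries, Dixon's test at the 95% level marked 11 libraries as far from the rest of their group. Chance marks about 1 in 20 groups of normally distributed values, which groups with many values at 0 are not. Erfe reached 16.3 in 1 acute sham of day 2 (the others had 0 to 1.51) and 7.74 in 1 acute sham of day 3 (the others had 0), and was 0 in 1 VarDR irradiated library of day 3. Plek2 was 0 in 1 irradiated and 1 sham library of VarDR day 5. Tfrc was 1040 in that same irradiated library, where the others had 4629 to 9658. Epor was 14.2 in 1 acute sham of day 3, below 59.7 to 98.7 in the others. Tfr2 was 611 in 1 acute sham of day 2, where the others had 2.84 to 13.6, and 79.7 in 1 acute sham of day 5. Steap3 was 13.7 in 1 acute sham of day 5 and 22.9 in 1 VarDR sham of day 2.

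Of 64 pairs of responses of the 8 genes (VarDR against acute, and day against day), 5 had every irradiated library on one side of its sham mean in one response and on the other side in the other, all of them VarDR day 30 against an earlier VarDR day. The differences of the log2 responses, which were not tested, were 4.38 for Plek2, 2.38 for Tfrc, 1.38 for Slc11a2 and 2.59 for Cd36 between days 30 and 3, and 1.86 for Cd36 between days 30 and 2. The genes had been picked for this course, and such pairs were not counted over all genes tested. Nothing is therefore read from this count.

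For genes outside the 8, the day 30 response minus the mean of days 2, 3 and 5 passed the test of that difference by limma. It was 1.38 for Pim1, 2.02 for Bcl2l1, 2.13 for Abcb10, 2.23 for Ftl1, 2.47 for Abcb6, 2.46 for Alas2, 2.42 for Lmo2, 2.45 for Hemgn and 1.80 for Top2a, and it was -0.75 for Stat5a and -0.63 for Nr3c1.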

How the results depend on the processing

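No paired analysis was possible because the labels give no replicate numbers. All 8 genes kept their direction on VarDR day 30 under every setting tried. Under settings other than leaving out each library, 364 values of the 8 genes stayed within their spread, 17 moved beyond it and 3, whose main value was larger than its spread, changed sign. Those 3 were in the values as deposited: 0.28 for Slc11a2 on acute day 3, and 0.34 for Tfrc and 0.25 for Cd36 on acute day 5. The same values moved the median of the 8 genes on acute day 5 from 0.77 to 1.65, and the genes past the threshold on acute days 2, 3 and 5 from 3131, 4337 and 3982 to 6299, 12317 and 10567. The count was 594 in place of 1856 on VarDR day 5 when only the compared groups were fitted, and 1644 on acute day 3 without the hepatocyte-rich libraries, where 1 irradiated mouse was left and is assumed to vary like the other groups. Without hepatocyte-rich libraries Tfrc on VarDR day 5 was -1.36 and Tfr2 on acute day 5 was -0.78. Counting sign changes of any size there were 12 (4 as deposited, 5 without hepatocyte-rich libraries, 2 under quantile normalization and 1 with a pseudocount of 10), and 14 pairs of gene and comparison changed sign when some single library was left out, none of them on VarDR day 30 or in its difference from days 2 to 5.

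Leaving out each library gave counts of 452 to 740, 1712 to 2208, 1401 to 2218 and 4324 to 5416 on VarDR days 2, 3, 5 and 30, 2798 to 3437, 2621 to 4621 and 3510 to 3758 on acute days 2, 3 and 5, and 3904 to 4731 for day 30 minus days 2 to 5. The lowest counts on VarDR day 2 and acute day 3 came without the first irradiated library. The median of the 8 genes ranged over 0.01 to 0.30, -0.68 to -0.47, -0.08 to 0.78 and 1.37 to 1.67 on the VarDR days, -0.23 to 0.07, 0.19 to 0.84 and 0.69 to 0.89 on the acute days, and 1.66 to 1.92 for the difference. Of 68 results for named list genes, 63 kept their call under quantile normalization and 5 lost it, 67 kept it as deposited, where Rhag on acute day 5 lost it (-0.41), and 67 without hepatocyte-rich libraries, and 3 lost it without at least 1 library. This last count was partly set in advance. On days 2 to 5 mainly genes that kept their call without any 1 library had been named. Values near 0 limit Erfe and Plek2 most.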
